A study of Bos taurus with 28 samples.

Results

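The liver carries out much of the catabolism of amino acids and disposes of the resulting ammonia as urea. The genes described here were 51 enzymes and carriers of the urea cycle and of amino acid catabolism. They were chosen by gene symbol from their known roles and not by a rule on their signals, although earlier results of these data were known. A probe set annotated with 1 gene symbol was found for 44 of the 51, out of 9155 genes with such a probe set on the array. NAGS, SLC25A13, GSTZ1, CTH, AGXT, AGXT2 and MCCC2 were not analysed here. For the 11 genes with more than 1 probe set, the one with the highest mean log2 signal over all arrays was read. Of the 44 genes, 42 had a signal of at least 350 on 1 or more of the arrays and entered the test.

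In the urea cycle, ammonia is condensed with bicarbonate in the mitochondrion by CPS1, joined to ornithine by OTC, and passed through ASS1 and ASL in the cytosol until ARG1 releases urea and returns ornithine. Glutaminase, glutamate dehydrogenase and the aminotransferases deliver nitrogen to it, and the carbon skeletons of the amino acids go to glucose, ketone bodies or the citrate cycle. In the rodent liver the urea cycle enzymes lie mainly around the portal vein, whereas glutamine synthetase (GLUL) and ornithine aminotransferase (OAT) lie around the central vein.

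The study asked how estradiol-17β and progesterone (P4), alone or together, alter hepatic gene expression. All cows were ovariectomized, non-lactating Holsteins, and each treatment lasted 14 days. Livers were assayed after an estradiol ear implant (E2T), after progesterone from a vaginal device (P4T), after both devices (E2P4T), and after no hormone (CO), with 7 arrays in each group. Percutaneous biopsies were each hybridised to 1 Affymetrix Bovine GeneChip, and values are MAS 5.0 signals on a log2 scale. The same cows passed through several treatments in a Latin square, but the labels name neither the cow nor the period, so the arrays were treated as independent and the p-values measure only the spread between arrays. The source labels call every hormone exposure intradermal, whereas the treatment protocol gives that route for the estradiol implant alone. An array measures the whole biopsy, so fewer hepatocytes and less RNA per hepatocyte cannot be told apart.

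P4T replicate 4 and E2P4T replicate 5 stood apart from the other arrays, and results are given for all 28 arrays and for the other 26. On the array labelled E2P4T replicate 5 (E2P4T 5), the mean log2 signal of 20 hepatocyte markers was 10.04, against 14.86 to 15.71 on those 26, and 18 of the 20 lay below all 26. ALB, the gene of serum albumin, read 12.06 there, against 16.57 to 18.16. The mean of 14 kidney nephron markers was 11.35, against 5.925 to 8.447, and 13 of the 14 lay above all 26. FXYD2, a subunit of the renal sodium pump, read 15.92, CDH16, the kidney-specific cadherin, 14.42, and UMOD, the gene of uromodulin, 11.33. The mean of 5 bile duct markers was 11.99, against 7.191 to 9.004, with 4 of the 5 above all 26, and that of 7 leukocyte and Kupffer cell markers was 7.887, against 10.44 to 12.06, with 6 of the 7 below all 26. The markers on this array therefore went against its label of liver, and it is called by its label only. P4T replicate 4 (P4T 4) gave 15.31 for the mean of the hepatocyte markers, which lay among the 26, while its leukocyte and Kupffer cell mean was 10.33. Single markers went both ways on P4T 4. Of the 20 hepatocyte markers, 5 lay above all 26 arrays there and 5 below, and of the 14 nephron markers 4 lay above and 1 below. Over all tested probe sets, 31.2% lay above and 12.9% below. The hybridisation controls of P4T 4, transcripts that are added to each sample in fixed amounts before hybridisation, averaged a log2 signal of 17.31 and those of E2P4T 5 averaged 18.27, against 12.95 to 16.26. Over the 26 arrays the hepatocyte mean was 14.94 to 15.53 in E2T, 14.89 to 15.61 in P4T, 14.86 to 15.71 in E2P4T and 15.25 to 15.68 in CO. On these arrays, 17 of 19 tested hepatocyte markers had a log2 fold change below 0 in each of the 3 treatments relative to CO. The marker medians were -0.25 for E2T, -0.30 for P4T and -0.27 for E2P4T. Of all tested probe sets, 59.8% were below 0 for E2T, 59.1% for P4T and 58.5% for E2P4T. Among the 5587 with a mean log2 signal of at least 10, those below 0 numbered 2311, 2234 and 2264 in that order. No marker passed the adjusted test. At an unadjusted p under 0.05 there were 2 markers per treatment, all on the lower side. The share of all probe sets lower at that level was 7.2% for E2T, 5.81% for P4T and 6.51% for E2P4T. The part of these marker differences in the values below was not tested.

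No gene of the 44 changed past the threshold in any treatment. limma, with Benjamini-Hochberg adjustment over 18775 probe sets, called 0 of the 42 tested genes at an adjusted p under 0.05 in E2T, in P4T or in E2P4T relative to CO, with 28 arrays or with 26. It called 0 of all 18775 probe sets in these contrasts as well (0%). The lowest adjusted p of any of the 42 with 28 arrays was 0.87 for E2T, 1 for P4T and 0.93 for E2P4T. With 26 arrays the lowest was 0.39 for E2T, 0.59 for P4T and 0.51 for E2P4T. The genes named below for their unadjusted p are therefore descriptions of differences that failed the correction.

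Without adjustment, the counts were small. In E2T, 2 of 42 genes (KMO, GLDC) were higher than CO at an unadjusted p under 0.05 with 28 arrays, where 1.45% of all probe sets were, and 0 were lower, where 3.98% of all were. With 26 arrays the same contrast gave KMO and GLDC on the higher side (background 3.03%) and ASL, SDSL and MAT1A on the lower side (background 7.20%). In P4T, OAT alone was higher with 28 arrays (background 0.943%), and OTC, KMO, GCSH and OAT were higher with 26 (background 2.39%). None was lower in P4T, where the background was 1.84% with 28 arrays and 5.81% with 26. In E2P4T, OAT was higher with 28 arrays (background 2.17%), and ASL and PRODH were lower (background 2.74%). With 26 arrays OTC, GCSH and OAT were higher in E2P4T (background 2.99%), and ASL and SDSL were lower (background 6.51%). The SDSL differences with 26 arrays, in E2T and in E2P4T, were between signals that were all below the minimum. The genes at this level with either set of arrays were KMO and GLDC in E2T, OAT in P4T, and OAT and ASL in E2P4T.

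Over the 42 genes the median log2 fold change with 26 arrays was -0.07 for E2T, 0.05 for P4T and -0.06 for E2P4T, all relative to CO. Over all 18775 probe sets it was -0.10, -0.09 and -0.09 in the same contrasts, and over the 5587 probe sets with a mean log2 signal of at least 10 it was 0.055, 0.07 and 0.07. With all 28 arrays the median of the 42 genes was -0.26 in E2P4T, and over all probe sets it was -0.02. On the same arrays 31 of the 42 genes lay on the lower side in E2P4T, where 51.7% of all probe sets did, and without P4T 4 and E2P4T 5 it was 22, where 58.5% did. A mean log2 signal of at least 10 was reached by 34 of the 42 genes. Among the 5587 probe sets at that level, 2662 lay lower in E2P4T with 28 arrays and 2264 with 26. The 5 tested urea cycle enzymes had a median of -0.81 in E2P4T with 28 arrays and -0.15 with 26, and the 6 genes of methionine and cysteine had -0.54 and -0.09. On the plot of differences for each gene, the SE of CPS1 in E2P4T is 0.16 with 26 arrays and 0.52 with 28.

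**Figure D1:**
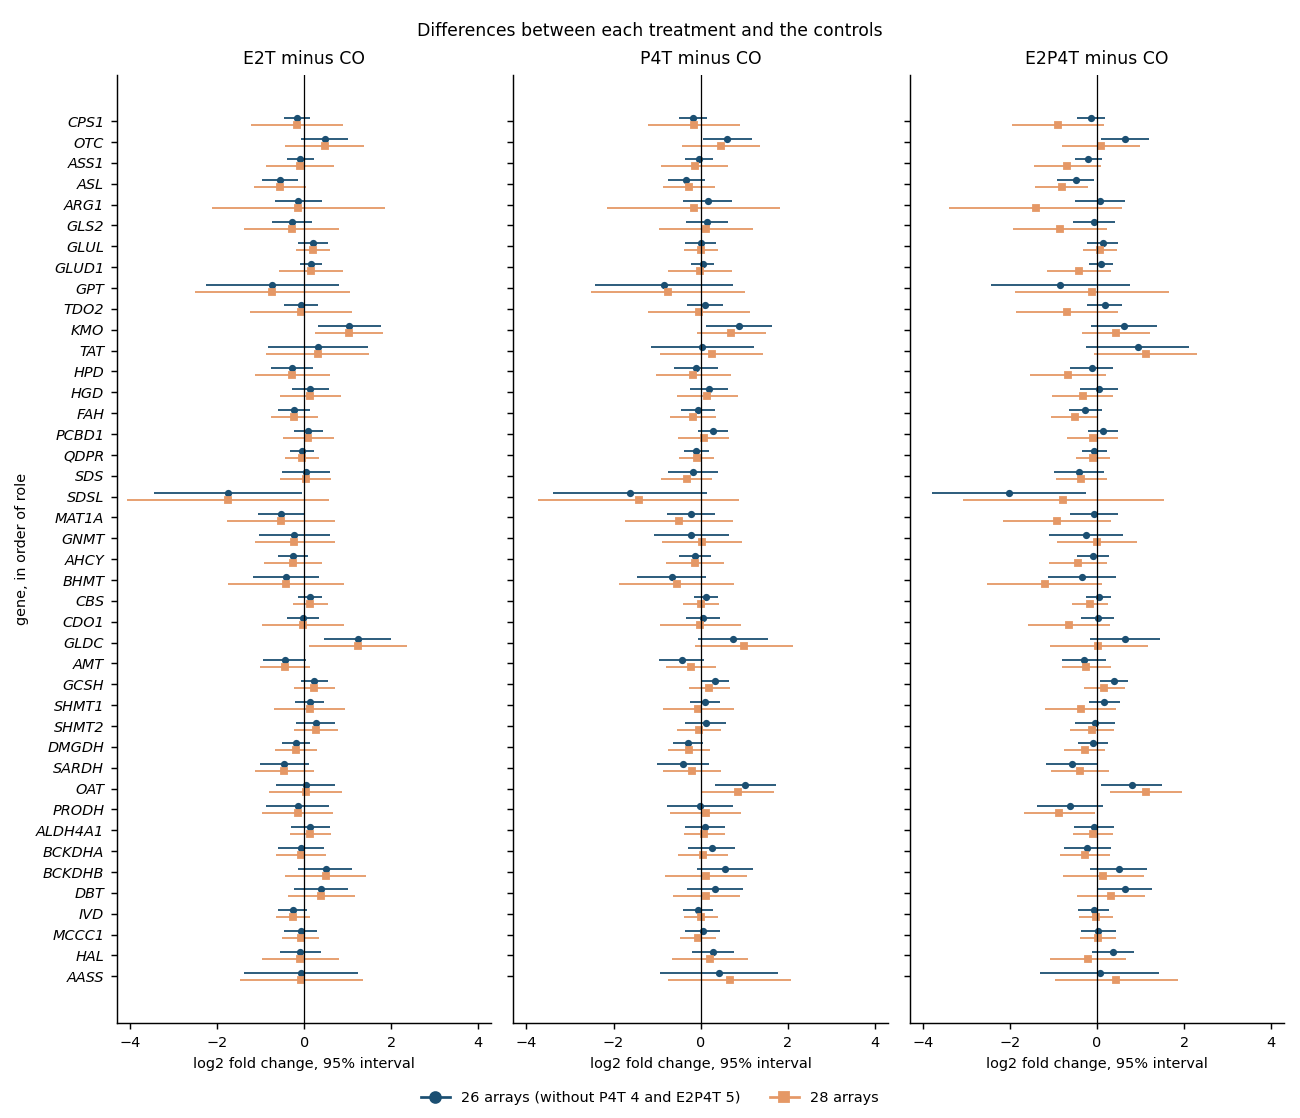
Log2 fold change (x axis) of the 42 tested genes (y axis, in order of role) in E2T, P4T and E2P4T relative to CO, with 95% intervals from limma, for 26 arrays (circles, without P4T 4 and E2P4T 5) and for 28 arrays (squares). Most intervals cover 0, OAT lies right of 0 in P4T and E2P4T, and the CPS1 estimate in E2P4T is -0.15 with 26 arrays and -0.90 with 28.

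Within the urea cycle CPS1 and ASS1 were among the 5 genes with the smallest SD within groups on 26 arrays (0.19 and 0.20 on the log2 scale), and neither passed the test in any treatment. CPS1, which makes carbamoyl phosphate from ammonia and is located on bovine chromosome 2, had a log2 signal of 15.94 to 16.41 in E2T (median 16.24), 15.90 to 16.37 in P4T (median 16.21), 10.95 to 16.55 in E2P4T (median 16.13) and 16.16 to 16.66 in CO (median 16.28). Apart from E2P4T 5 at 10.95, the ranges of the groups overlapped. With 26 arrays its log2 fold change was -0.16 in E2T (SE 0.15, 95% interval -0.47 to 0.145), -0.17 in P4T (-0.49 to 0.15) and -0.15 in E2P4T (-0.47 to 0.17). ASS1, which joins citrulline to aspartate, ranged over 15.75 to 16.44 in E2T, 15.37 to 16.13 in P4T, 12.47 to 16.13 in E2P4T and 15.77 to 16.51 in CO. Its medians were 15.90 in E2T, 16.04 in P4T, 15.83 in E2P4T and 16.09 in CO, and its log2 fold change with 26 arrays was -0.09, -0.04 and -0.20 in the 3 treatments in that order. All 3 of its intervals covered 0 and none reached beyond -0.52.

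OTC, the mitochondrial enzyme that forms citrulline and whose gene is on the X chromosome, read 11.21 to 13.10 in E2T (median 12.87), 11.77 to 13.29 in P4T (median 12.59), 8.91 to 13.06 in E2P4T (median 12.83) and 10.77 to 12.98 in CO (median 12.22). The lowest values were those of E2T 3, P4T 4, E2P4T 5 and CO 3, 1 in each group, and the remaining values of the treated arrays overlapped the upper part of the CO range. With 26 arrays OTC was 0.47 higher in E2T on the log2 scale (SE 0.26, adjusted p = 0.53), 0.61 higher in P4T (SE 0.27, adjusted p = 0.60) and 0.64 higher in E2P4T (SE 0.27, adjusted p = 0.52). All 6 P4T arrays and all 6 E2P4T arrays in that fit were above the CO mean, as were 6 of 7 E2T arrays. With 28 arrays the E2P4T difference was 0.09 (adjusted p = 0.99).

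ASL, which splits argininosuccinate into arginine and fumarate, had the largest difference on the lower side among the urea cycle enzymes with 26 arrays. It read 12.86 to 13.92 in E2T (median 13.67), 13.16 to 14.23 in P4T (median 13.75), 11.29 to 13.89 in E2P4T (median 13.40) and 13.26 to 14.57 in CO (median 14.07). The groups overlapped, and CO 1 at 13.26 was the lowest CO array. The log2 fold change with 26 arrays was -0.55 in E2T (SE 0.20, adjusted p = 0.40), -0.33 in P4T (adjusted p = 0.64) and -0.49 in E2P4T (SE 0.21, adjusted p = 0.52). With 28 arrays the E2P4T difference was -0.81 (adjusted p = 0.93). A second ASL probe set gave 0.06 in E2T, 0.27 in P4T and 0.12 in E2P4T, so the probe sets of this gene differed in sign.

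ARG1, the hepatic arginase, read 13.51 to 15.35 in E2T (median 14.05), 12.33 to 14.96 in P4T (median 14.47), 4.09 to 14.81 in E2P4T (median 14.29) and 12.94 to 15.21 in CO (median 14.42). Its lowest arrays were again E2T 3, P4T 4, E2P4T 5 and CO 3. With 26 arrays the log2 fold change was -0.13 for E2T, 0.16 for P4T and 0.06 for E2P4T, each with an SE of 0.27 or 0.28. With 28 arrays the E2P4T difference was -1.41 (SE 0.97). The carrier SLC25A15, which exchanges ornithine and citrulline across the inner mitochondrial membrane, never reached the signal of 350 (log2 of 8.45) and was not tested. It read 1.89 to 6.87 in E2T, 3.39 to 6.49 in P4T, 3.88 to 8.22 in E2P4T and 3.38 to 7.58 in CO.

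OAT had the lowest F test p of the 42 genes with 26 arrays (adjusted p = 0.87), in a test that put 1.04% of the 18775 under an unadjusted 0.01. OAT moves the amino group of ornithine to 2-oxoglutarate and so takes ornithine out of the urea cycle. Its log2 signal was 11.20 to 12.94 in E2T (median 12.68), 11.98 to 14.55 in P4T (median 13.12), 11.74 to 15.36 in E2P4T (median 13.28) and 11.32 to 12.91 in CO (median 12.22). The highest values belonged to E2P4T 5 and P4T 7, and the lowest of both P4-treated groups lay within the CO range. Without P4T 4 and E2P4T 5, OAT averaged 12.23 ± 0.79 in E2T, 13.23 ± 0.73 in P4T, 12.99 ± 0.63 in E2P4T and 12.20 ± 0.62 in CO (SD, n = 7 in E2T and CO and n = 6 in P4T and E2P4T).

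The OAT difference was 2.04-fold in P4T with 26 arrays (log2 1.03, SE 0.34, adjusted p = 0.59) and 1.73-fold in E2P4T (log2 0.79, SE 0.34, adjusted p = 0.52). All 6 P4T arrays and 5 of 6 E2P4T arrays were above the CO mean. In E2T the log2 fold change was 0.03 (95% interval -0.645 to 0.71), with 4 of 7 arrays above the CO mean. Set directly against each other, E2T minus P4T was -0.999 on the log2 scale (SE 0.34) and E2P4T minus E2T was 0.76 (SE 0.34), with an adjusted p of 1 in both. At an unadjusted p under 0.05, 0.788% of all probe sets were lower in E2T than in P4T and 0.767% were higher in E2P4T than in E2T. With 28 arrays the OAT difference was 0.85 in P4T and 1.13 in E2P4T, and E2P4T 5 itself was the highest array at 15.36. Without P4T 7, the highest P4T array, the 28-array difference in P4T was 0.60.

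**Figure D2:**
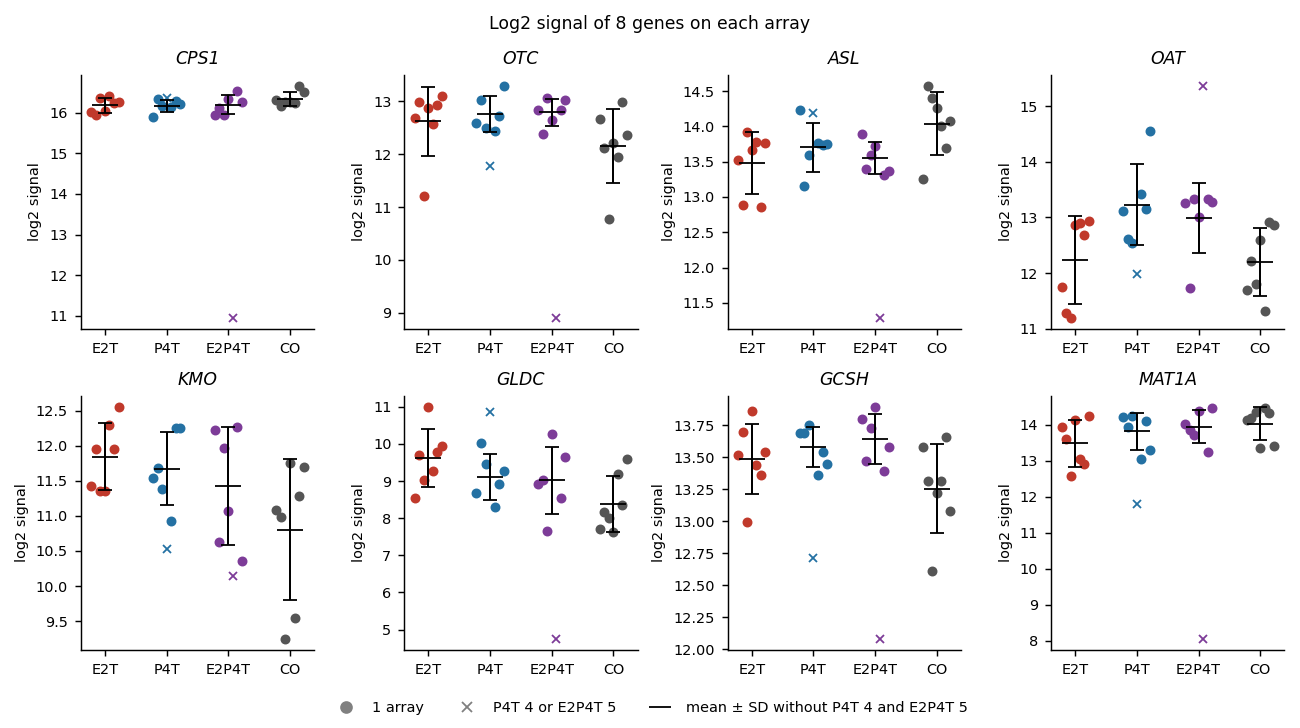
Log2 signal (y axis) of CPS1, OTC, ASL, OAT, KMO, GLDC, GCSH and MAT1A on each array of E2T, P4T, E2P4T and CO (x axis). Circles are arrays, crosses are P4T 4 and E2P4T 5, and bars are the mean ± SD without those 2 arrays. The groups overlap in all 8 panels, and E2P4T 5 is the lowest array of its group for 7 of the 8 genes and the highest for OAT.

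PRODH, which starts the oxidation of proline, read 7.39 to 8.95 in E2T (median 7.97), 7.47 to 9.21 in P4T (median 8.28), 5.86 to 8.70 in E2P4T (median 7.58) and 6.59 to 9.27 in CO (median 8.55). The PRODH medians of the 3 treated groups were below the minimum signal (log2 of 8.45). Its E2P4T difference was -0.875 with 28 arrays (adjusted p = 0.93) and -0.62 with 26 (adjusted p = 0.58). ALDH4A1, the dehydrogenase at which the proline and ornithine routes meet, had a log2 fold change of 0.14 for E2T, 0.10 for P4T and -0.07 for E2P4T with 26 arrays.

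Among genes that reached the minimum signal on 1 or more of the 26 arrays, GLDC and KMO had the largest differences in E2T. GLDC, the decarboxylating subunit of the glycine cleavage system, read 8.54 to 10.99 in E2T (median 9.70), 8.31 to 10.87 in P4T (median 9.27), 4.75 to 10.28 in E2P4T (median 8.92) and 7.63 to 9.59 in CO (median 8.15). All 7 E2T arrays were above the CO mean, and the ranges of the groups overlapped. The CO median of GLDC was below the minimum signal (log2 of 8.45), so its differences were set against controls mostly below that signal. With 26 arrays GLDC was 2.35-fold higher in E2T (log2 1.23, SE 0.38, adjusted p = 0.39), and its log2 fold change was 0.74 in P4T (adjusted p = 0.61) and 0.64 in E2P4T (adjusted p = 0.59). P4T 4 was the highest P4T array at 10.87, and with 28 arrays the E2P4T difference was 0.03.

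KMO, which hydroxylates kynurenine on the route from tryptophan to nicotinamide nucleotides, read 11.35 to 12.55 in E2T (median 11.95), 10.53 to 12.26 in P4T (median 11.54), 10.14 to 12.27 in E2P4T (median 11.07) and 9.25 to 11.76 in CO (median 11.09). CO 3 was the lowest array of the series at 9.25. The difference was 2.06-fold in E2T with 26 arrays (log2 1.04, SE 0.36, adjusted p = 0.39), with 7 of 7 arrays above the CO mean. It was 0.87 in P4T (adjusted p = 0.60) and 0.62 in E2P4T (adjusted p = 0.58) on the log2 scale. TDO2, which opens the indole ring at the start of the same route, read 13.91 to 14.79 in E2T, 13.48 to 14.65 in P4T, 8.45 to 14.83 in E2P4T and 13.53 to 14.80 in CO. Its log2 fold change with 26 arrays was -0.07 for E2T, 0.09 for P4T and 0.17 for E2P4T. KYNU, which cleaves kynurenine and hydroxykynurenine, stayed under the minimum signal on every array, at 0.93 to 6.59 in E2T, 1.14 to 7.06 in P4T, 1.54 to 5.77 in E2P4T and 1.77 to 6.66 in CO.

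GLDC and KMO were the 2 genes for which the combined treatment differed from the sum of the single ones at an unadjusted p under 0.05, both on the lower side, where 1.06% of all probe sets were with 26 arrays and 0.581% with 28. With 26 arrays the interaction was -1.33 for GLDC (SE 0.55) and -1.29 for KMO (SE 0.52). The adjusted p was 0.98 for both, so the interaction also failed the correction. For GLDC it was -2.19 with 28 arrays, in which E2P4T 5 read 4.75.

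The partners of GLDC in the glycine cleavage system gave other values. GCSH, the lipoyl carrier protein, read 12.99 to 13.86 in E2T (median 13.52), 12.71 to 13.75 in P4T (median 13.54), 12.08 to 13.89 in E2P4T (median 13.58) and 12.61 to 13.66 in CO (median 13.31). With 26 arrays its log2 fold change was 0.24 in E2T (adjusted p = 0.58), 0.33 in P4T (adjusted p = 0.60) and 0.39 in E2P4T (adjusted p = 0.51), and its second probe set gave 0.17, 0.495 and 0.58. AMT, the aminomethyltransferase of the same complex, lay on the other side of 0, at -0.44 in E2T (adjusted p = 0.52), -0.44 in P4T (adjusted p = 0.62) and -0.30 in E2P4T (adjusted p = 0.68). SARDH, which demethylates sarcosine, was at -0.45, -0.41 and -0.58 in the same order, while SHMT1, SHMT2 and DMGDH, which pass single-carbon units to folate, ranged from -0.29 to 0.265.

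Among the enzymes of methionine, MAT1A, the liver-specific synthase of S-adenosylmethionine, read 12.58 to 14.23 in E2T (median 13.60), 11.81 to 14.25 in P4T (median 13.94), 8.06 to 14.46 in E2P4T (median 13.84) and 13.34 to 14.45 in CO (median 14.18). E2T 3 was the lowest E2T array at 12.58. The log2 fold change with 26 arrays was -0.54 in E2T (SE 0.26, adjusted p = 0.48), -0.21 in P4T and -0.08 in E2P4T. Without E2T 3, P4T 4, E2P4T 5 and CO 3 the E2T value was -0.335 (adjusted p = 0.58), which was not under an unadjusted 0.05. With the hybridisation controls as a covariate on the 26 arrays it was -0.597 (adjusted p = 0.67), which was under an unadjusted 0.05. BHMT, which remethylates homocysteine from betaine, read 13.19 to 14.91 in E2T, 13.25 to 15.01 in P4T, 8.03 to 15.39 in E2P4T and 13.36 to 15.91 in CO. Its log2 fold change was -0.42, -0.66 and -0.35 in that order, with an SE of 0.37 or 0.38. AHCY, GNMT, CBS and CDO1, which complete the methionine cycle and carry its sulfur towards cysteine and taurine, had log2 fold changes between -0.26 and 0.14 in the 3 treatments with 26 arrays. CBS was among the steadiest of the genes, at 10.68 to 11.05 in E2T, 10.01 to 11.13 in P4T, 9.35 to 10.90 in E2P4T and 10.51 to 10.98 in CO.

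The remaining groups held no gene with an unadjusted p under 0.05 at a measurable signal in a single treatment with 28 or with 26 arrays. GLS2, the liver glutaminase, read 10.83 to 11.84 in E2T, 11.09 to 12.56 in P4T, 6.11 to 12.09 in E2P4T and 11.11 to 12.08 in CO, with medians of 11.39, 11.69, 11.37 and 11.72 in that order. GLUD1, the glutamate dehydrogenase of mitochondria, read 14.93 to 15.14 in E2T, 14.48 to 15.10 in P4T, 11.38 to 15.14 in E2P4T and 14.49 to 15.13 in CO. It had the smallest SD within groups of the 44 genes on 26 arrays, 0.16 on the log2 scale. GLUL, which makes glutamine from glutamate and ammonia, had a log2 fold change of 0.20 for E2T, 0.003 for P4T and 0.13 for E2P4T. QDPR, which regenerates the tetrahydrobiopterin used to hydroxylate phenylalanine, had an SD of 0.18 and read 14.89 to 15.44 in E2T, 14.98 to 15.25 in P4T, 14.92 to 15.33 in E2P4T and 14.74 to 15.43 in CO. HPD, HGD, FAH and PCBD1, which with it break down phenylalanine and tyrosine, had log2 fold changes between -0.275 and 0.28 with 26 arrays. TAT, the aminotransferase that opens tyrosine catabolism, read 6.89 to 7.996 in E2T, 5.82 to 8.79 in P4T, 7.29 to 9.89 in E2P4T and 4.17 to 9.52 in CO. Its log2 fold change of 0.93 in E2P4T had an SE of 0.58.

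Of the branched-chain genes, BCKDHB and DBT, subunits of the branched-chain ketoacid dehydrogenase, lay on the higher side in each treatment with 26 arrays. BCKDHB was at 0.49 in E2T, 0.56 in P4T and 0.49 in E2P4T, with an SE of 0.30 to 0.32, and DBT was at 0.39, 0.34 and 0.63. BCKDHA, the partner subunit of BCKDHB, was at -0.07, 0.25 and -0.22, and IVD and MCCC1 of leucine breakdown ranged from -0.26 to 0.05. HAL, which deaminates histidine, was at -0.09, 0.29 and 0.37.

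SDSL, GPT and AASS reached the minimum signal only on P4T 4 or E2P4T 5, and their tests on 26 arrays compared signals below it. SDSL, a relative of serine dehydratase (SDS), read 1.85 to 6.48 in E2T, 3.39 to 6.56 in P4T, 2.10 to 12.85 in E2P4T and 3.96 to 8.27 in CO. Its differences of -1.75 in E2T (adjusted p = 0.48) and -2.02 in E2P4T (adjusted p = 0.52) were therefore between signals that were all below it. GPT, an alanine aminotransferase, read 3.34 to 7.45 in E2T, 3.38 to 7.58 in P4T, 3.93 to 10.67 in E2P4T and 3.89 to 7.97 in CO. AASS, which starts lysine breakdown, read 3.15 to 7.99 in E2T, 6.74 to 8.90 in P4T, 3.78 to 9.42 in E2P4T and 4.99 to 7.69 in CO. With SLC25A15 and KYNU, these were the 5 genes with the largest SD within groups, 1.30 to 1.83 on the log2 scale. SDS itself read 8.38 to 9.66 in E2T, 7.83 to 9.50 in P4T, 7.99 to 9.02 in E2P4T and 8.04 to 9.69 in CO.

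When the treatments were averaged and set against CO, 6 genes were higher at an unadjusted p under 0.05 with 26 arrays (background 5.21%) and 3 were lower (background 10.2%). OTC was higher by 0.575 (adjusted p = 0.25), KMO by 0.84 (adjusted p = 0.23), GLDC by 0.87 (adjusted p = 0.23), GCSH by 0.32 (adjusted p = 0.26) and OAT by 0.62 (adjusted p = 0.30) on the log2 scale, and BCKDHB by 0.515 at the edge of the threshold. On the lower side ASL was at -0.46 (adjusted p = 0.23), SARDH at -0.48 (adjusted p = 0.32) and SDSL at -1.80 (adjusted p = 0.25). All SDSL signals on the 26 arrays were below the minimum. The lowest adjusted p was 0.23. With 28 arrays KMO was higher (background 2.18%) and ASL was lower (background 3.19%) at that level. All 3 treatments lay on the higher side of CO for 14 of the 42 genes with 26 arrays, where 27.1% of all probe sets did, and on the lower side for 17, where 44.7% did. With 28 arrays these were 9 genes (background 24.8%) and 17 genes (background 34.6%). The 3 contrasts share the CO arrays.

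On E2P4T 5, 25 of the 44 genes lay below all 26 other arrays, 15 lay within their range and 4 lay above, where 14.2% of all tested probe sets lay below and 40.1% above. Of the 4 above, SDSL, GPT and AASS had passed the filter only through P4T 4 or E2P4T 5. The 40.1% also includes probe sets that passed in that way. The median difference from the median of the 26 was -1.58 on the log2 scale for the 44 genes and 0.67 for all probe sets. ARG1 was lowest, at 4.09 against 12.94 to 15.35 on the 26, a difference of -10.3 from their median. It was followed by MAT1A (-5.92), BHMT (-5.89), TDO2 (-5.86), GLS2 (-5.46) and CPS1 (-5.31). All 5 enzymes of the urea cycle on the array lay below all 26 arrays, with differences of -3.77 for OTC, -3.50 for ASS1 and -2.43 for ASL beside ARG1 and CPS1. A second ARG1 probe set differed by 0.16 there, so the low ARG1 value was seen with 1 of its 2 probe sets. The second probe sets of ASL and BHMT likewise lay 0.03 and 1.1 above their medians there. The mean log2 signals of these second probe sets over the 28 arrays were 9.618 for ARG1, 9.454 for ASL and 7.759 for BHMT. Those of the probe sets read were 13.95, 13.63 and 13.83. Of the 6 genes of methionine and cysteine, 5 lay below all 26 arrays, as did 4 of 6 of phenylalanine and tyrosine, 4 of 7 of glycine, 2 of 5 of the branched-chain amino acids and 0 of the 2 serine dehydratases.

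Above all 26, SDSL read 12.85 against 1.85 to 8.27 on the 26, GPT 10.67 against 3.34 to 7.97, OAT 15.36 against 11.20 to 14.55 and AASS 9.42 against 3.15 to 7.99. SDSL, GPT and AASS entered the test only through P4T 4 or E2P4T 5, so their place above the 26 was partly set by the filter. TAT and KYNU lay within the range of the 26, at 1.90 and 1.79 above their medians. QDPR, ALDH4A1, SDS, MCCC1, IVD and GLUL differed from their medians by at most 0.36 in either direction. Of related genes, ASPA, which splits N-acetylaspartate, read 10.84 against 2.17 to 7.999, and GPT2, the mitochondrial alanine aminotransferase, 14.17 against 11.32 to 12.95. ASPA also stayed below the minimum signal on the 26 arrays. PHGDH, of serine synthesis, read 6.68 against 10.48 to 12.96 and FTCD, of histidine breakdown, 6.98 against 11.09 to 13.26. Second probe sets of CDO1 and QDPR lay 5.94 and 4.32 above their medians there, unlike the probe sets read above. Their mean log2 signals over the 28 arrays were 3.715 and 5.644, below the minimum of 8.45, against 14.71 and 15.13 for the probe sets read. The part of the low hepatocyte and high nephron marker signals in these values was not tested.

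**Figure D3:**
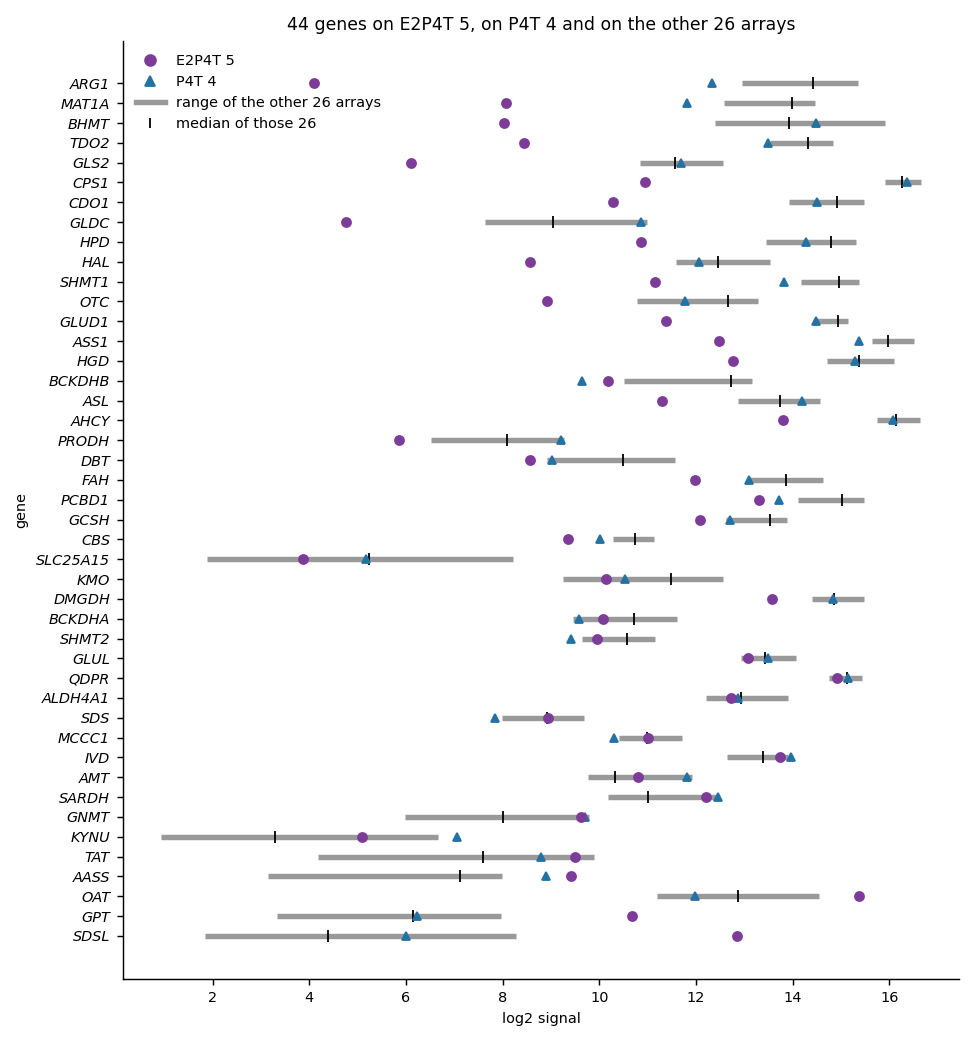
Log2 signal (x axis) of the 44 genes (y axis, from the gene farthest below on E2P4T 5 to the gene farthest above) on E2P4T 5 (circles) and P4T 4 (triangles), with the range (grey bar) and median (tick) of the other 26 arrays. ARG1 reads 4.09 on E2P4T 5 and SDSL reads 12.85, both outside the grey bars.

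On P4T 4, 12 of the 44 genes lay below all 26 arrays (background 12.9%) and 4 above (background 31.2%). BCKDHB read 9.65 there against 10.50 to 13.15 on the 26, MAT1A 11.81 against 12.58 to 14.46, and ARG1 12.33 against 12.94 to 15.35. CPS1, ASL, GLS2 and BHMT lay within the range of the 26 on P4T 4.

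**Figure D4:**
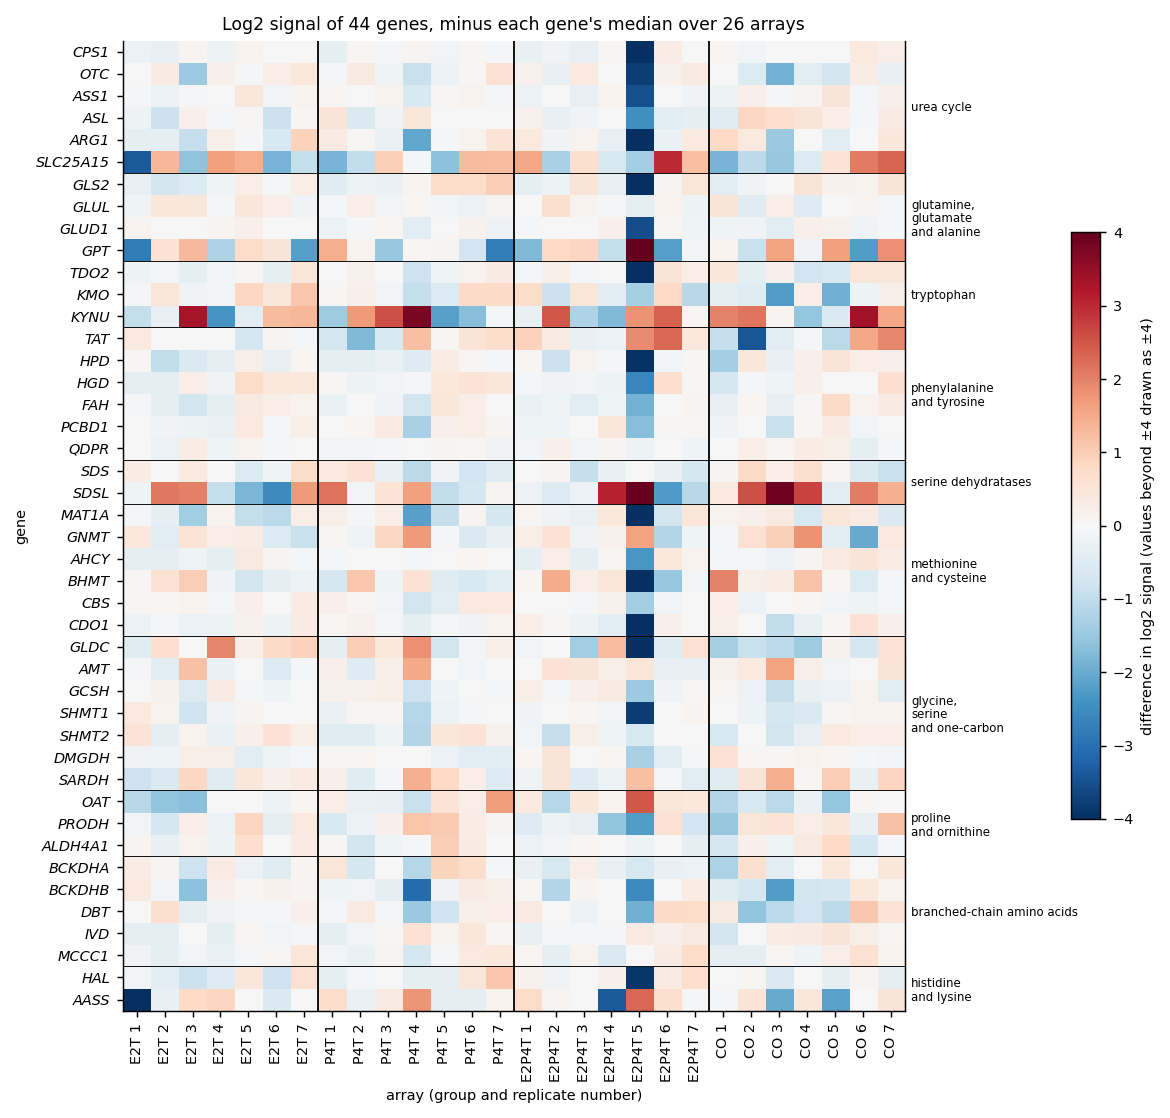
Log2 signal of the 44 genes (rows, grouped by role) on the 28 arrays (columns, by group) minus each gene's median over the 26 arrays, with colours cut at ±4. The column of E2P4T 5 is blue for ARG1, CPS1, MAT1A and BHMT and red for SDSL, GPT and OAT. The rows of SLC25A15, GPT, KYNU, SDSL and AASS, which stayed below the minimum signal on the 26 arrays, vary in every group.

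The 4 arrays with the highest hybridisation controls were E2T 3 (15.42), P4T 4 (17.31), E2P4T 5 (18.27) and CO 3 (16.26), 1 in each group. On all 4 of them OTC, ARG1, KMO, FAH, GCSH, SHMT1, BCKDHB and HAL, 8 of the 44 genes, were the lowest of their group, where 3.75% of all tested probe sets were. AMT and SARDH, 2 of the 44, were the highest of their group on E2T 3, P4T 4 and CO 3, where 15.8% of all were. BCKDHB read 11.10 on E2T 3, 9.65 on P4T 4, 10.18 on E2P4T 5 and 10.50 on CO 3. The other arrays of E2T were at 12.62 to 13.13, those of P4T at 12.33 to 13.06, those of E2P4T at 11.57 to 13.04 and those of CO at 12.01 to 13.15.

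**Figure D5:**
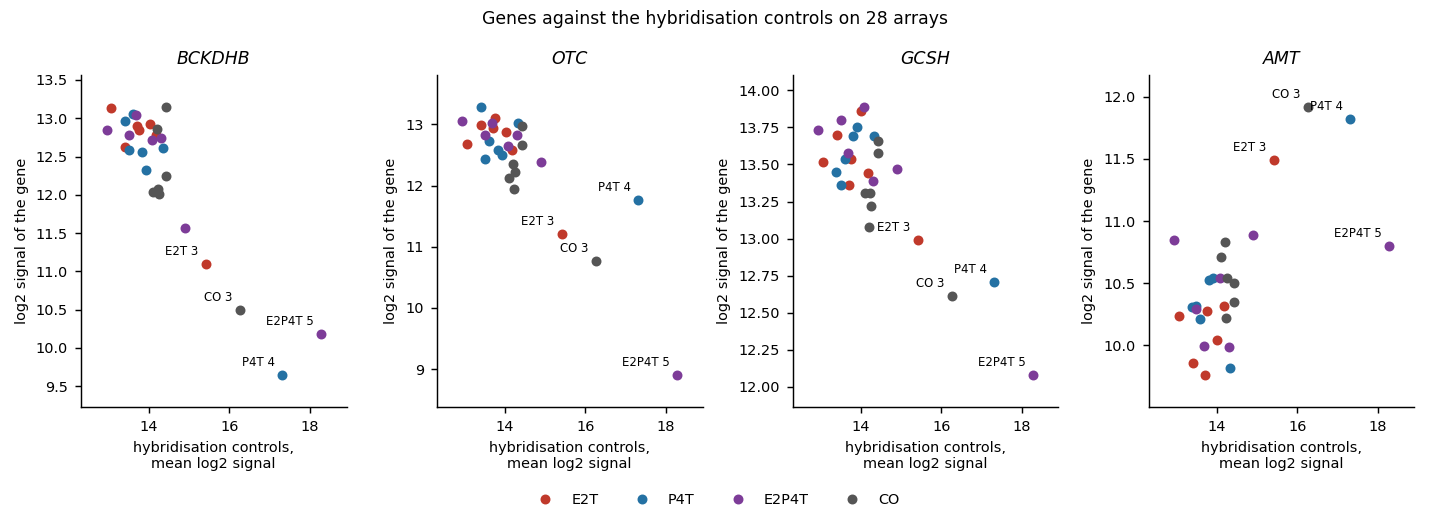
Log2 signal of BCKDHB, OTC, GCSH and AMT (y axes) against the mean log2 signal of the hybridisation controls (x axis) on 28 arrays, coloured by group. E2T 3, P4T 4, E2P4T 5 and CO 3 lie to the right, at 15.42 to 18.27, with low BCKDHB, OTC and GCSH, and AMT is high on E2T 3, P4T 4 and CO 3.

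The controls averaged 13.9 in E2T, 13.8 in P4T and 13.9 in E2P4T on the 26 arrays, against 14.6 in CO. With them as a covariate, chosen after the values were seen, the 26-array log2 fold change of OTC was 0.10 for E2T, 0.14 for P4T and 0.255 for E2P4T, and that of BCKDHB was 0.02, -0.045 and -0.01. KMO was at 0.73 in E2T (adjusted p = 0.68), 0.48 in P4T and 0.29 in E2P4T under that covariate, and GCSH was at 0.10, 0.15 and 0.24. GLDC had a difference of 1.30 in E2T (adjusted p = 0.58), and ASL one of -0.495 (adjusted p = 0.65). OAT was at 0.705 in P4T (adjusted p = 0.99) and 0.52 in E2P4T (adjusted p = 0.80).

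Without all 4 of those arrays, 24 arrays in all, OTC was 0.48 higher in E2T (SE 0.17, adjusted p = 0.26), 0.38 higher in P4T (adjusted p = 0.74) and 0.41 higher in E2P4T (adjusted p = 0.62). OAT was at 0.96 in P4T (adjusted p = 0.74) and 0.725 in E2P4T, and GLDC at 1.27 in E2T (adjusted p = 0.22). KMO was at 0.86 in E2T (adjusted p = 0.30), 0.61 in P4T and 0.36 in E2P4T, and BCKDHB at 0.47 in E2T (adjusted p = 0.34), 0.29 in P4T and 0.22 in E2P4T. AMT was at -0.445 in E2T (adjusted p = 0.30), -0.24 in P4T and -0.10 in E2P4T. Of these, KMO in E2P4T, AMT in P4T and E2P4T, BCKDHB in P4T and E2P4T, and OTC in P4T and E2P4T were more than 1.5 times smaller than with 26 arrays. limma called 0 of the 42 genes with these 24 arrays as well.

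Among 54 related genes of amino acid transport and metabolism, 36 had a probe set, 34 were tested, and limma called none in any contrast with CO. With 26 arrays and an unadjusted p under 0.05, 2 of the 34 were higher in E2T (background 3.03%) and 4 lower (7.20%), 4 were higher in P4T (2.39%) and 1 lower (5.81%), and 1 was higher in E2P4T (2.99%) and 0 lower (6.51%). At that level PCCA, of propionyl-CoA carboxylase, was higher in E2T (0.505) and in P4T (0.53), and ASRGL1, an asparaginase, was higher in E2T (0.44) and in P4T (0.52). PSAT1, of serine synthesis, was higher in P4T (0.51), and FTCD was lower there (-0.71). HIBADH, of valine breakdown, was higher in P4T (0.70) and ALDH7A1, of lysine breakdown, in E2P4T (0.48), both at the edge of that level. BCAT2, the mitochondrial branched-chain aminotransferase, was lower in E2T (-1.59, adjusted p = 0.39), as were the phosphatase PPM1K (-0.77), which activates the branched-chain dehydrogenase, the glutamine carrier SLC38A3 (-0.54) and HOGA1 (-0.61), of hydroxyproline breakdown. BCAT2 read 2.907 to 8.349 on the 26 arrays, below the minimum signal (log2 of 8.45), and 8.584 on E2P4T 5. Its E2T difference, with either set of arrays, was therefore between signals below the minimum. With 28 arrays the genes at that level were BCAT2, PPM1K and HOGA1, lower in E2T (background 3.98%), and PSPH, of serine synthesis, higher in E2P4T (0.76, background 2.17%). The median log2 fold change of the 34 with 26 arrays was 0.02 for E2T, 0.13 for P4T and 0.13 for E2P4T.

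On 26 arrays the median SD within groups was 0.45 on the log2 scale for the 42 tested genes and 0.58 for all tested probe sets. For the 34 genes with a mean log2 signal of at least 10 it was 0.38, and for the 5587 probe sets at that level it was 0.39. The median SE of a difference from CO over the 42 genes was 0.23 for E2T, 0.24 for P4T and 0.24 for E2P4T with 26 arrays, and 0.38 with 28.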

How the data were processed

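The authors extracted liver mRNA, hybridised it to the Affymetrix Bovine GeneChip and read the arrays with MAS 5.0 software. They deposited 1 intensity (MAS 5.0 signal) per probe set and array, scaled by array (trimmed means of 1000.2 to 1000.4 here), and these signals were taken to log2 without further scaling. Per the labels, 28 arrays fell into 4 groups of 7, by treatment title. The study's filter used detection calls, which were not used here, and a probe set was tested where its highest signal reached 350 (18775 of 24016, leaving out 112 controls). Gene names came from the platform annotation, in which 13292 probe sets had 1 symbol and 86 had several. limma 3.58.1 in R 4.3.3 (lmFit, eBayes with trend) fitted 1 coefficient per group, with Benjamini-Hochberg adjustment over all tested probe sets and a threshold of 0.05. The study's cow and period terms could not be fitted. P-values are two-sided. The number of arrays limits the precision.

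The genes and lists were chosen with earlier results of these data known. Every gene of the list could be named, and values by group were given for the urea cycle, for genes with an unadjusted p under 0.05 in a contrast with CO or the F test, for the 5 largest and 5 smallest SDs within groups, and for the 6 genes at either end on E2P4T replicate 5. The fit was tested on simulated data. Alternatives were other scalings, filters, a pseudocount of 50, array weights, terms for replicate number and RNA quality, means over probe sets, and fits without single arrays. The fits with hybridisation controls, without CO 3, E2T 3, P4T 4 and E2P4T 5, or combining a choice with the 26 arrays were added after seeing the data.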

Additional observations from a re-analysis of the deposited data

Results flagged for a closer look

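In 40 of the 176 combinations of gene and group looked at, 1 array lay far from the other 6 of its group by Dixon's criterion, which chance meets in about 1 of 20. E2P4T 5 accounted for 21 of them, P4T 4 for 8, E2T 3 and CO 3 for 3 each, CO 1 for 2, and E2T 1, E2T 5 and E2P4T 4 for 1 each. No share of all probe sets by this criterion is given, so the count cannot be read as particular to these genes. Of all tested probe sets, 14.2% on E2P4T 5 lay below every other array but P4T 4, and 40.1% lay above. For P4T 4, set against every other array but E2P4T 5, these shares were 12.9% and 31.2%. No explanation was tested, and values are log2 signals.

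On E2P4T 5 the urea cycle enzymes were the lowest of their group, with CPS1 at 10.95 (the other 6 arrays 15.94 to 16.55), OTC at 8.906 (12.38 to 13.06), ASS1 at 12.47 (15.64 to 16.13), ASL at 11.29 (13.31 to 13.89) and ARG1 at 4.087 (14.09 to 14.81). So were GLS2 at 6.109 (11.21 to 12.09) and GLUD1 at 11.38 (14.76 to 15.14). Of the aromatic amino acid genes, TDO2 read 8.45 (14.23 to 14.83), HPD 10.86 (13.95 to 14.94), HGD 12.77 (15.17 to 16.04), FAH 11.97 (13.39 to 13.95) and PCBD1 13.31 (14.84 to 15.47). Of the methionine and cysteine genes, MAT1A read 8.061 (13.24 to 14.46), AHCY 13.79 (15.78 to 16.54), BHMT 8.031 (12.39 to 15.39), CBS 9.353 (10.63 to 10.9) and CDO1 10.29 (14.47 to 15.18). GCSH read 12.08 (13.39 to 13.89), SHMT1 11.15 (14.83 to 15.06), DBT 8.564 (10.27 to 11.27) and HAL 8.568 (12.32 to 13.11).

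On P4T 4 the lowest of the group were ASS1 at 15.37 (15.91 to 16.13), ARG1 at 12.33 (14.16 to 14.96), TDO2 at 13.48 (14.15 to 14.65), PCBD1 at 13.72 (15.02 to 15.35), GCSH at 12.71 (13.36 to 13.75), SHMT1 at 13.82 (14.69 to 15.03) and BCKDHB at 9.649 (12.33 to 13.06). AMT was the highest there at 11.82 (9.818 to 10.54).

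On E2T 3, OTC read 11.21 (12.58 to 13.1) and BCKDHB 11.1 (12.62 to 13.13), both lowest, and AMT 11.49 (9.763 to 10.32), the highest. On CO 3, PCBD1 read 14.11 (14.88 to 15.33) and BCKDHB 10.5 (12.01 to 13.15), both lowest, and AMT 11.92 (10.22 to 10.83), the highest. TAT was lowest on E2T 5 at 6.892 (7.545 to 7.996), and AASS on E2T 1 at 3.154 (6.561 to 7.988) and on E2P4T 4 at 3.776 (7.053 to 9.422). Apart from AASS on E2P4T 5 at 9.422, these TAT and AASS signals were below the minimum (log2 of 8.45). On CO 1, DMGDH was highest at 15.48 (14.76 to 15.01) and IVD lowest at 12.64 (13.36 to 13.9).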

How the results depend on the processing

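limma called 0 of these genes in any contrast under each of 51 other settings, 28 of which left out 1 array, and the lowest adjusted p of a gene was 0.12. Of 1447 values compared, 1383 were taken as unchanged. For the fold change of a gene this meant the same direction and side of the threshold, and for a count a change within 1.5 times. A median over the genes was taken as unchanged if it moved by less than 0.45, whatever its sign. The P4T median was -0.0096 with 28 arrays and 0.047 with 26. Further, 57 counts of genes at an unadjusted p under 0.05 moved by more than 1.5 times or from or to 0, and 7 fold changes of single genes changed sign. The OTC difference in E2P4T, 0.09 with all arrays, was -0.143 after quantile normalization, -0.143 without CO 3, -0.0116 without E2P4T 1 and without E2P4T 6, -0.0494 without E2P4T 3 and -0.0422 without E2P4T 7, and the SDSL difference in E2P4T, -0.78, was 0.133 with log2(signal + 50). Causes were not tested. Without E2P4T 5 the OTC difference was 0.643, and without single arrays the OAT difference ran from 0.602 to 1.03 in P4T and from 0.792 to 1.4 in E2P4T.

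Replicate numbers were not used as pairs, since no label ties a number to a cow or a period and the deviations of same-numbered arrays correlated at -0.0894 to 0.311 (means 0.00885 to 0.158, against -0.0101 for different numbers). Of 26 arrays, 10 correlated best with their own number, a hint from the data and not from the design, so whether arrays of 1 number share a cow cannot be told. With the replicate block 0 genes were called. Genes under the minimum signal, SLC25A15, GPT, KYNU, SDSL and AASS on the 26 arrays, had the largest SDs within groups (1.30 to 1.83).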
